A study of Mus musculus with 5 samples.

Results

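The sites described here had a peak with antibody 1 against NEUROD2 and with neither of the other antibodies. The peaks of the 3 NEUROD2 antibodies were merged where they shared at least 1 bp, and merged regions that held peaks of antibody 1 only were kept. Of 12637 merged regions, 992 met this rule. Each held exactly 1 peak, so they made up 19.1% of the 5202 peaks of antibody 1.

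NEUROD2 is a basic helix-loop-helix (bHLH) transcription factor of excitatory neurons. Such factors bind as dimers to E-boxes, short palindrome-like elements of the form CANNTG, and the NEUROD family is known for binding CAGCTG and CAGATG. In the cortex NEUROD2 takes part in the growth of dendrites, the formation of synapses and the differentiation of projection neurons.

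ChIP-Seq recovers and sequences the DNA fragments that an antibody pulls down with its protein. Chromatin came from cerebral cortex of untreated wild-type BALB/c mice at postnatal day 0, pooled from 5 littermates. There was 1 library per antibody. The methods name the antibodies as ab168932, ab104430 and ab109406, and the numbers 1, 2 and 3 used here are those of the sample titles. Which number belongs to which antibody is not stated. A library made with an antibody against GFP, a protein these mice lack, was the background in peak calling, and the input DNA did not enter the present comparisons. All libraries came from whole cortical tissue, so the cell type behind a peak was not separated. Whether separate animals were used per antibody is not stated, and antibody, library and pool cannot be told apart. The lists give peak positions and scores but no read numbers, so the depth behind each peak is unknown. A list holds only peaks past the cutoff of the peak caller, so a missing peak of antibody 2 or 3 does not show that its signal was zero.

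The windows below show what the highest scoring of these sites look like in sequence. Each is the plus strand of the central 200 bp of a site in the GRCm38 (mm10) reference, which is of the strain C57BL/6J. Capitals mark CAGCTG and CAGATG, the latter read as CATCTG where it lies on the minus strand. The first window, chr1:43024865-43025064, lies in an intron of Gpr45, a gene for an orphan G protein-coupled receptor, at the highest scoring site of all. The second, chr6:118680933-118681132, lies in an intron of Cacna1c, which encodes the pore of an L-type calcium channel. The third, chr19:45024822-45025021, lies in an exon of Lzts2, which encodes a leucine zipper protein. They show paired and clustered E-boxes.
Gpr45 intron: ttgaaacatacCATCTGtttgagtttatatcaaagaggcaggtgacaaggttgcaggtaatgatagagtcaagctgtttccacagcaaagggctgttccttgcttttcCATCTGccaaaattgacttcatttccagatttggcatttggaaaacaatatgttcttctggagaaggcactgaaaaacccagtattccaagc
Cacna1c intron: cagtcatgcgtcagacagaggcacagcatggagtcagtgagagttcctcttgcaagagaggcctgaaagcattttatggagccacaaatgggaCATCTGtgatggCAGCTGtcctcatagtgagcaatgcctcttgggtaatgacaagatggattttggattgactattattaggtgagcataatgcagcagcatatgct
Lzts2 exon: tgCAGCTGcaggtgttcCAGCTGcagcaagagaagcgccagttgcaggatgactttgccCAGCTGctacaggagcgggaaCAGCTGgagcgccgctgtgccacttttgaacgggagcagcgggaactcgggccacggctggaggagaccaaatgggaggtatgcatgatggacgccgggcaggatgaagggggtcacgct

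Other high scoring sites had neither of these E-boxes, or had them within repeated sequence. The window chr4:102760230-102760429 covers the transcription start site (TSS) of Sgip1, which encodes an endocytic adaptor. The window chr3:95524591-95524790 lies between genes, closest to Ctss, and consists mainly of CTG and CTC triplets. The window chr11:99858156-99858355 lies at the start of Gm11568, in a cluster of keratin-associated protein genes, and extends beyond a site of only 60 bp.
Sgip1 promoter: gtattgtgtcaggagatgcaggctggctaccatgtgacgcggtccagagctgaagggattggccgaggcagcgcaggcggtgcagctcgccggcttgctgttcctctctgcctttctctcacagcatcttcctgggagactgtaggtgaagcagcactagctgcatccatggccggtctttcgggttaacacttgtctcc
Ctss upstream triplets: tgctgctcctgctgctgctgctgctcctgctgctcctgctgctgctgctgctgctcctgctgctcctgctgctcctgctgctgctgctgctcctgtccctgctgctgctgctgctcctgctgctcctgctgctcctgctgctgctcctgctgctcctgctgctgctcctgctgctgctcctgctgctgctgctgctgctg
Gm11568 promoter: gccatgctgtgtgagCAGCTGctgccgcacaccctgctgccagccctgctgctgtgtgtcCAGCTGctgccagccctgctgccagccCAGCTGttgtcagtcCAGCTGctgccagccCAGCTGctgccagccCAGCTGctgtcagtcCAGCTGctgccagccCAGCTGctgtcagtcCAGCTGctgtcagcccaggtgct

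The antibody 1 only sites lay close to the cutoff of the peak caller. The score of a peak is −10 times the log10 of the p-value given by MACS, and the lowest score in the list of antibody 1 was 50.01. The sites were chosen by whether the peaks of each antibody passed this cutoff, so their scores are given as a description with no test. The median score was 57.1, with quartiles at 52.5 and 64.7 and a maximum of 216.39. Of the 992 sites, 359 (36.2%) reached a score of 60, 130 (13.1%) reached 75 and 38 (3.83%) reached 100. Sites of antibodies 1 and 2 had a median antibody 1 score of 76, and sites of all 3 antibodies one of 166. The peaks were also short, with a median of 152 bp and a range of 60 to 779 bp, against medians of 263 bp and 376 bp for the antibody 1 peaks in those 2 classes.

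**Figure D1:**
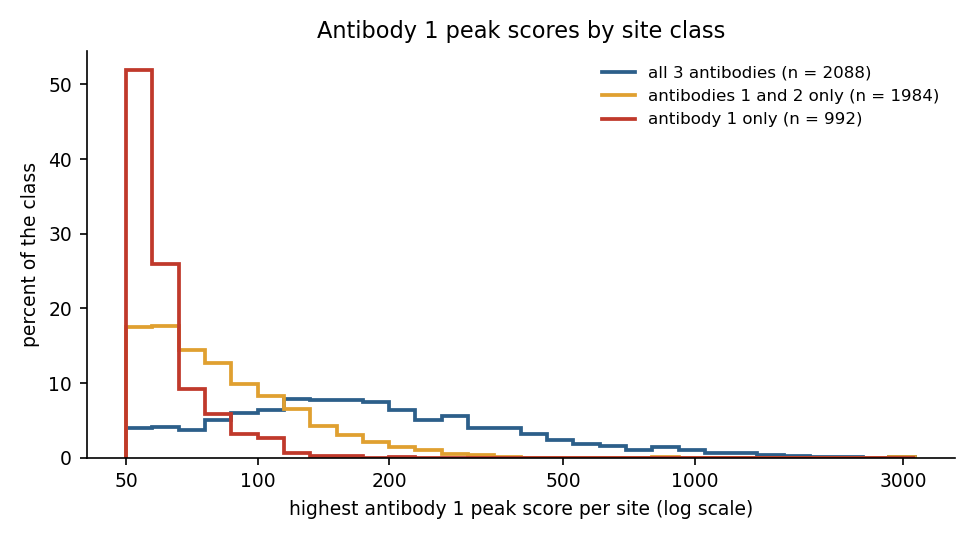
Percent of sites of each class (vertical axis) by the highest antibody 1 peak score in the site (horizontal axis, log scale). Of the antibody 1 only sites, 51.9% fell in the lowest bin, which runs from 50 to 57.4, and few reached the scores at which the sites of all 3 antibodies were most frequent.

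The Gpr45 site, at 216.39, ranked 808 among the 5202 antibody 1 peaks, and all antibody 1 peaks with a higher score lay in regions shared with another antibody. It was followed by Cacna1c (155.4), Sgip1 (154.06), an intron of Aplf, a DNA repair gene (142.8), and the triplet site near Ctss (137.8). Next came Lzts2 (127.94), the promoter of Susd4, a complement regulator gene (125.21), Gm11568 (121.29) and the promoter of Slc7a5, which encodes a transporter of large neutral amino acids (120.64). Some of these had peaks of another antibody nearby. The closest antibody 2 peak lay 52 bp from the Ctss site, 186 bp from the Sgip1 site and 833 bp from the Slc7a5 site. The Gpr45, Cacna1c, Aplf and Susd4 sites lay more than 40 kb from any peak of the other antibodies.

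Most of the sites were far from any other peak. Only 28 of 992 (2.82%) lay within 100 bp of a peak of another antibody, 66 (6.65%) within 500 bp and 237 (23.9%) within 10000 bp, and the median distance was 42322 bp. Those just inside the rule were a site in an intron of Pkib, which encodes an inhibitor of protein kinase A, 3 bp from an antibody 2 peak (score 50.35), an intergenic site on chromosome 5, 4 bp away (149292900 to 149293046, score 54.11), and the promoter of Uqcrfs1, a subunit of mitochondrial complex III, 6 bp away (score 54.48). Just outside it were regions where antibody 1 shared 2 bp with antibody 2, on chromosome 2 (119872357 to 119873194, antibody 1 score 76.78) and in an intron of Nckap5 (60.69), and a region of all 3 antibodies on chromosome 3 (100223337 to 100223755, 101.3) with an overlap of 4 bp. Moving the limit had little effect on the number of sites. Counting peaks of another antibody within 500 bp as shared left 926. The number rested on antibody 2, since 3066 regions of antibody 1 had no peak of antibody 3, while 1024 had no peak of antibody 2.

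The sites lay mostly in introns and between genes. By midpoint, 410 (41.3%) were in introns, 396 (39.9%) were intergenic, 143 (14.4%, 95% Wilson interval 12.4 to 16.7) were in promoters, meaning within 1000 bp of a TSS, and 43 (4.33%) were in exons. The promoter share was lower than that of the sites of all 3 antibodies (30.9%), of antibodies 1 and 2 only (27.8%) and of antibody 2 only (47.5%). Adjusted p-values were 2.36e-23, 1.51e-16 and 3.86e-94 by two-sided Fisher's exact test, with Benjamini-Hochberg adjustment over 18 comparisons. The intergenic share was higher than in each of these classes, at 30.1%, 32.6% and 22.6% (adjusted p = 1.3e-07, 0.000125 and 1.35e-28, same exact test). Antibody 3 only sites, compared after the data were seen, had a promoter share of 30.5% and an intergenic share of 32.9% (adjusted p = 2.33e-11 and 0.0241, Fisher's exact test, adjusted over 6 comparisons). These tests count sites of single libraries, so they cover counting error and not variation between libraries or mice. With antibody 2 left out, the promoter share was 23.5%, still below the 30.7% of the regions that antibodies 1 and 3 then shared (adjusted p = 2.42e-08, same exact test). The median distance to the closest TSS was 12116 bp, against 7352.5 bp for all 3 antibodies, 6899.5 bp for antibodies 1 and 2, and 1481 bp for antibody 2 only.

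**Figure D2:**
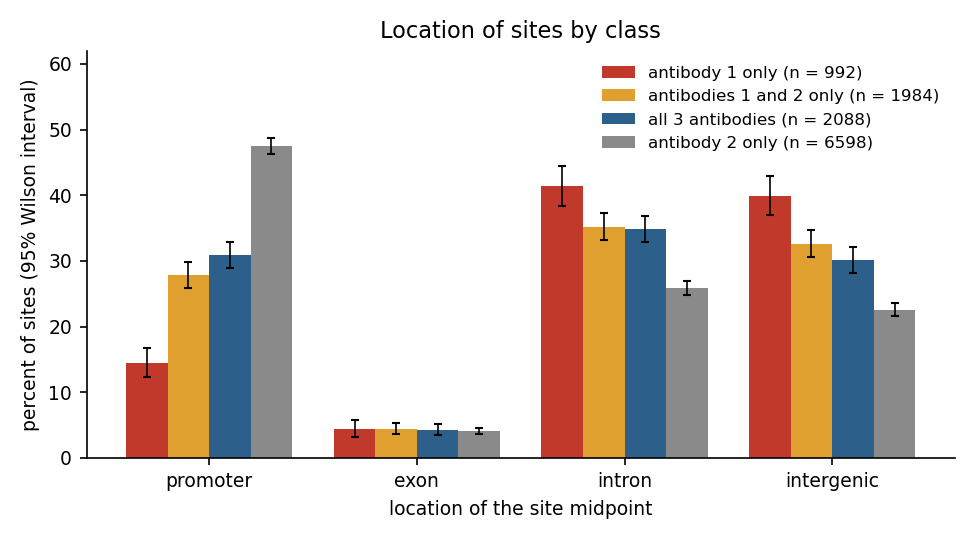
Percent of sites (vertical axis, bars with 95% Wilson intervals) by the location of the site midpoint, for 4 classes of sites. The antibody 1 only sites had the lowest promoter bar, at 14.4%, and the highest intergenic bar, at 39.9%, while the exon bars were of similar height.

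The promoter share was lower than in both shared classes in every band of scores below 100. Among sites with an antibody 1 score below 75, 123 of 862 antibody 1 only sites (14.3%) were in promoters, against 33.5% of the sites of antibodies 1 and 2 and 48.3% of those of all 3 antibodies (adjusted p = 1.81e-21 and 1.26e-25, Fisher's exact test, adjusted over 10 comparisons chosen after the values were seen). At 75 or more the share was 20 of 130 (15.4%, 10.2 to 22.6), and its comparison with the 14.3% below 75 did not pass the threshold (adjusted p = 0.690, same exact test). Between 75 and 100 it was 10 of 92 (10.9%), against 45.3% and 26.8% of the sites of all 3 antibodies and of antibodies 1 and 2. The share at 75 or more was lower than the 28.6% of all 3 antibodies (adjusted p = 0.0013, Fisher's exact test). The 22.4% (20.0 to 25.1) of antibodies 1 and 2 did not pass the threshold against it (adjusted p = 0.101, same exact test). Among the 38 sites with a score of 100 or more, 26.3% (14.97 to 42.0) were in promoters, against 26.1% of the 1610 such sites of all 3 antibodies and 18.7% of the 550 of antibodies 1 and 2. At these scores the promoter share was thus not lower than in the shared classes, and the comparison with all 3 antibodies did not pass the threshold (adjusted p = 1, exact test, added after seeing the data).

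E-boxes stood at the centre of these sites. CAGCTG or CAGATG was present in the central 200 bp of 583 of 991 sites (58.8%, 55.7 to 61.9), against 20.9% of windows of the same length 2000 bp beyond the edges, a ratio of 2.82. One of the 992 sites lay on an unplaced scaffold and was left out of all counts of sequence. In 464 sites the centre but not the upstream flank had an E-box, and in 78 the reverse held (two-sided exact McNemar test, p = 7.77e-68). One E-box was present in 304 sites, 2 in 193, 3 in 55 and 4 or more in 31. In 50 bp bins the density peaked at 6.78 E-boxes per kb beside the midpoint and had fallen to 3.41 per kb at 125 bp from it.

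**Figure D3:**
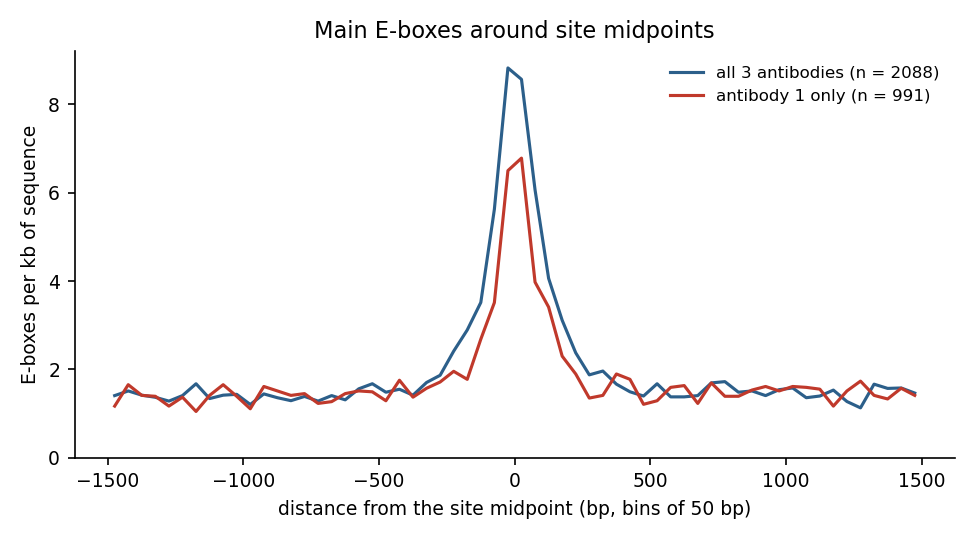
Number of CAGCTG and CAGATG E-boxes per kb of sequence (vertical axis) by distance from the site midpoint (horizontal axis, bp, bins of 50 bp). Both classes peak at the midpoint, at 6.78 per kb in the 991 antibody 1 only sites and at 8.82 per kb in the 2088 sites of all 3 antibodies.

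E-boxes were nevertheless less frequent than in the shared sites. The share was 76.8% in sites of all 3 antibodies and 76.1% in those of antibodies 1 and 2 (adjusted p = 2.36e-23 and 3.87e-21, Fisher's exact test over the same 18 comparisons). The window of 200 bp gives all classes the same length, and is longer than most antibody 1 only sites. Searched over whole sites, whose lengths differ between the classes, the shares were 54.9% and 92.4% for antibody 1 only and all 3 antibodies (adjusted p = 1.59e-123, exact test). With antibody 2 left out, the share was 71.3% against 81.1% in regions of antibodies 1 and 3 (adjusted p = 8.32e-16, exact test). In antibody 2 only sites it was 59.1% (57.9 to 60.3), and that comparison did not pass the threshold (adjusted p = 0.890, exact test). In antibody 3 only sites it was 41.0%, lower than in the antibody 1 only sites (adjusted p = 8.49e-10, exact test over the 6 comparisons with that class). The antibody 1 only and antibody 2 only sites differed in location, and so the shares were compared by location. Outside promoters, 522 of 848 antibody 1 only sites had an E-box (61.6%, 58.2 to 64.8), against 75.5% of antibody 2 only sites, 82.3% of those of antibodies 1 and 2 and 83.4% of those of all 3 antibodies. All of these differences passed the threshold (adjusted p = 3.27e-15, 4.84e-27 and 8.68e-30, Fisher's exact test, adjusted over 6 comparisons chosen after the values were seen). In promoters the share was 61 of 143 (42.7%, 34.8 to 50.9), against 40.9% of antibody 2 only sites, 59.8% of those of antibodies 1 and 2 and 62.2% of those of all 3 antibodies (adjusted p = 0.665, 0.000369 and 3.37e-05, same exact test). The share was 61.7% in introns, 61.5% between genes and 60.5% in exons.

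The E-box share of the antibody 1 only sites was higher at higher scores, but did not rise at every step. From the lowest band (50 to 55) to the highest (100 or more) it was 55.2%, 50.8%, 64.9%, 75% and 71.1%. Among antibody 1 only sites it was 56.6% (53.2 to 59.8) below a score of 75 and 73.8% (65.7 to 80.6) at 75 or more, a difference that passed the threshold (adjusted p = 0.000354, Fisher's exact test over the 10 comparisons named above). Below 75 it was lower than the 72.8% of antibodies 1 and 2 and the 71.1% of all 3 antibodies in the same range of scores (adjusted p = 1.37e-12 and 0.000108, exact test). At 75 or more the other classes had 79.1% (76.5 to 81.5) and 77.6% (75.6 to 79.4), and neither comparison passed the threshold (adjusted p = 0.217 and 0.367, exact test). Whether the difference between classes itself changed with the score was not tested.

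**Figure D4:**
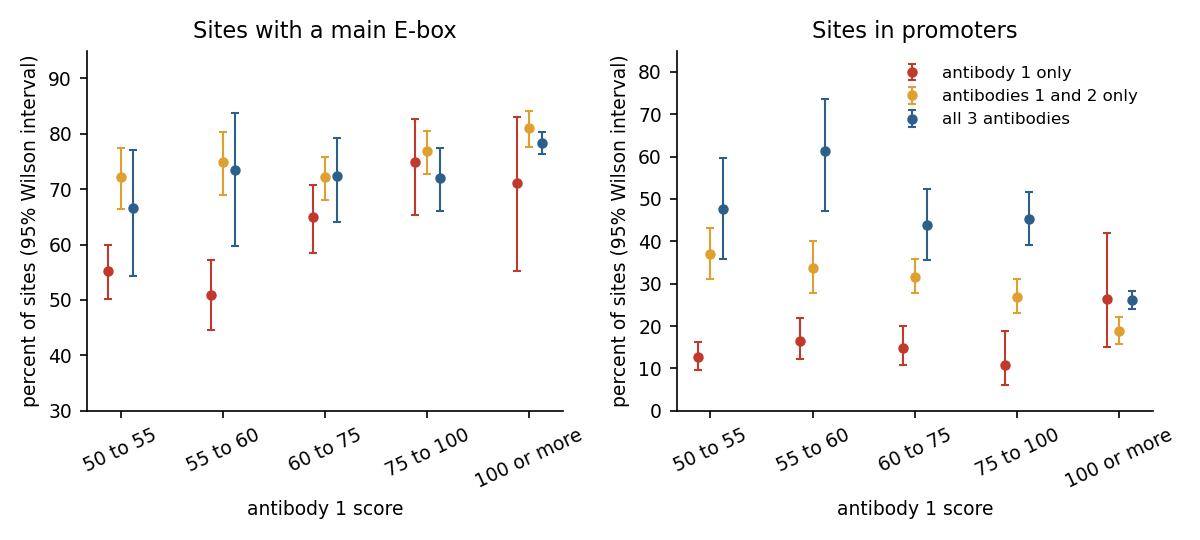
Percent of sites with a main E-box, CAGCTG or CAGATG (left), and percent in promoters (right), by band of antibody 1 score, with 95% Wilson intervals. The antibody 1 only sites lie at 55.2% and 50.8% with an E-box in the lowest bands and at 75% between scores of 75 and 100, while their promoter share lies below those of both other classes in each band below 100.

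CAGATG was the most frequent of the single forms, followed by CAGCTG and CAGGTG, in the antibody 1 only sites as in the sites of all 3 antibodies. CAGATG was present in 402 sites (40.6%, flanks 14.6%) and CAGCTG in 300 (30.3%, flanks 7.32%), against 54.4% and 41.8% of the sites of all 3 antibodies. CAGGTG was present in 23.0% (20.5 to 25.7) of the antibody 1 only sites, against flanks of 13.0% and 21.3% (19.6 to 23.1) of the sites of all 3 antibodies, with overlapping intervals. CAATTG and CACGTG were rare, at 2.22% and 3.43%. In 167 sites (16.9%) the central 200 bp had no CANNTG at all, among them the Susd4 promoter and the Ctss site. Of the flank windows, 66.4% had a CANNTG, against 83.1% of the centres.

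Without regard to a list, E-boxes also led outside promoters. Among 1242 hexamers with at least 50 occurrences in the 848 sites outside promoters, CAGCTG had the highest ratio of centre to flank per window (5.63), followed by CAGATG (3.98) and GCAGCA (3.85). Over all sites, CAGCTG ranked 6 of 1389 hexamers (5.58), behind the GC-rich hexamers CGCCGC (12.7), CCGCCG (8.27), GCCGCC (7.38), CGCCCG (7.14) and GCGGCC (5.85). None of these GC-rich hexamers was among the first 5 outside promoters, where hexamers with fewer than 50 occurrences were not ranked. Over all sites they had 50 to 118 occurrences in the centres, so this filter may have removed some of them. The median GC content of the central 200 bp was 51.0%, against 44.5% in the flanks and 56.0% at the centre of sites of all 3 antibodies.

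CAG triplets were a further shared feature, noticed after the hexamers were ranked. CAGCAG was present in 384 sites (38.7%, 35.8 to 41.8), against 16.9% of their flanks, and 3 or more triplets in a row in 34 (3.43%), against 0.454%. Of the 384 sites with CAGCAG 61.98% had one of the main E-boxes, and of the 34 with 3 triplets 47.1%, against 58.8% of all sites. The shares in sites of all 3 antibodies were 46.7% and 4.60%. The Ctss window printed above is the extreme case, with every base soft-masked as repeat and no E-box.

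Of 35 short motifs examined, 15 had a share whose interval lay above the flank share and 7 one below it. These shares were given no test. The full site of NFI, a family of factors of neuronal and glial differentiation, was present in 51 sites (5.15%, 3.94 to 6.70), against 1.72% of flanks, and the shorter form TTGGCA in 17.1% against 9.54%. The GC box GGGCGG, bound by SP factors, was present in 7.87% of the sites against 2.17% of flanks, below the 19.3% of the sites of all 3 antibodies. The AP-1 motif TGANTCA stood at the level of its flanks (6.36% and 6.31%), whereas in sites of all 3 antibodies it stood below them (3.59% and 6.01%). The nuclear receptor element AGGTCA behaved likewise (10.2% and 11.3%, against 5.12% and 12.1%). The homeobox core TAATTA (2.22% and 5.50%) and runs of 8 A (1.92% and 7.62%) were below their flanks.

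The core motif of CTCF, the insulator protein that organises chromatin loops, was rarer than in the shared classes and the antibody 2 only sites, but not than in antibody 3 only sites. With at most 1 mismatch it was present in 42 of 991 sites (4.24%), against 15.6% of sites of all 3 antibodies, 13.5% of those of antibodies 1 and 2 and 12.02% of antibody 2 only sites (adjusted p = 5.4e-22, 2.57e-16 and 1.76e-15, Fisher's exact test over the 18 comparisons). With antibody 2 left out, the share was 7.86% against 13.4% in regions of antibodies 1 and 3 (adjusted p = 2.01e-10, exact test). In antibody 3 only sites it was 2.63% (1.51 to 4.54), and this comparison did not pass the threshold (adjusted p = 0.267, exact test). The search covered whole sites, and longer sites give more chances of a match. In the central 200 bp, the same length in all classes, the shares were 4.34% (3.24 to 5.79), 8.67%, 8.37% and 8.11%, and the differences were smaller but passed the threshold (adjusted p = 1.72e-05, 3.56e-05 and 1.72e-05 by exact test, 3 comparisons added after seeing the data). The flanks of antibody 1 only sites had 2.32%.

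Repeats were somewhat more frequent than in the shared classes and the antibody 2 only sites, but less frequent than around the sites. The midpoint was soft-masked as repeat in 113 of 991 sites (11.4%), against 8.57% in all 3 antibodies, 7.76% in antibodies 1 and 2 and 6.91% in antibody 2 only (adjusted p = 0.0168, 0.00174 and 3.1e-06, Fisher's exact test over the 18 comparisons). Against the 9.21% (6.89 to 12.2) of antibody 3 only sites the comparison did not pass the threshold (adjusted p = 0.281, exact test). With antibody 2 left out, the share was 9.72% against 9.03% in regions of antibodies 1 and 3, and did not pass the threshold (adjusted p = 0.436, exact test). In the flanks of the antibody 1 only sites 27.5% of midpoints were masked. Most sites were unique in the genome. Any stretch of 50 bp that also occurs elsewhere was found in 42 sites (4.24%), against 11.8%, 6.45% and 4.94%. The first 2 differences passed the threshold (adjusted p = 2.09e-12 and 0.0168) and the last did not (adjusted p = 0.405, Fisher's exact test). This count grows with the length of a site. Per stretch of 50 bp, 2.01% were repeated, against 2.76%, 2.59% and 2.69%. In 12 sites every such stretch was repeated, among them sites at the promoters of Mink1 and Kctd20, which were chosen after their values were seen.

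Of 21911 protein-coding genes, 502 held an antibody 1 only site in the gene body or within 1000 bp of a TSS, which is 2.29% of the genes. With antibody 2 left out it was 1573 genes. Among the 2489 genes of at least 100 kb it was 265, or 10.6%, and the genes with a site had a median length of 110.9 kb against 17.4 kb for all. In all, 516 sites were assigned to a gene and 476 to none. Of the 502 genes, 121 (24.1%) also held a site of all 3 antibodies, against 5.39% of all protein-coding genes, and 204 held no site of any other class. Long genes are more likely to hold sites of any class, and the part of length in this was not tested.

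Only 33 genes held more than 1 of the sites. Gm20388 had 8, but its annotated model runs over 4435 kb of chromosome 8 and across other genes, Slc7a5 among them. Tspear had 5, at scores of 52.98 to 106.86, and its introns hold other short genes. Asic2, which encodes an acid-sensing ion channel, had 4, at 59.27, 51.57, 51.39 and 51.27. Tspan9, a tetraspanin gene, had 2 (92 and 50.11), and Tenm4, a teneurin of axon targeting, had 2 (83.05 and 56.23). Asic2 also held 3 sites of all 3 antibodies.

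The 15 gene lists cover functions of cortical projection neurons and, for comparison, the inhibitory lineage, glia, microglia and endothelium. They were read against the 2.29% of all genes and the 10.6% of long genes above. Over all lists, 40 of 377 genes (10.6%) held an antibody 1 only site, and of those of at least 100 kb it was 39 of 205 (19.0%). The lists are rich in long genes, and no test was made. E-boxes given for single sites are those in the central 200 bp. The sites in these genes lay mostly in introns and close to the score cutoff, but some lay in exons or promoters or had higher scores.

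Axon guidance genes had sites in 7 of 46 genes, and in 7 of the 32 of at least 100 kb. Dcc, a netrin receptor, had a site in an exon (68.28) and one in an intron (50.66), both without an E-box. It had no site of any other class. Sema4d, a semaphorin, had 1 (63.25, no E-box). Slit3, a repellent ligand of ROBO receptors, had 2 (59.83 with 1 E-box and 57.68 with none). Cadherins had sites in 6 of 30 genes, all of them among the 22 long ones. The highest scores were in Cdh22 (73.3, 1 E-box), Cdh8 (64.9, 2 E-boxes) and Cdh13 (62.44 and 58.16, 1 E-box each). Among genes of synaptic and axonal adhesion it was 6 of 47, or 6 of 37 long genes. These were led by Tenm4 (83.05, no E-box), Dscam (65.14, no E-box) and Dscaml1 (58.52, 2 E-boxes).

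The highest score in any of the lists was at a channel gene, Cacna1c. Of 36 genes for calcium and sodium channels and for calcium stores, 7 had a site, all among the 25 long ones. These were led by Cacna1c (155.4, 2 E-boxes), Cacna2d3, an auxiliary calcium channel subunit (77.95, 2 E-boxes), and Ryr1, a calcium release channel (70.73, 1 E-box). The Cacna2d3 and Ryr1 sites lay in exons, the former where Lrtm1 is also annotated. The other ryanodine receptor genes also had 1 each, at the promoter of Ryr3 (59.64, 2 E-boxes) and in an intron of Ryr2 (56.23, no E-box). Potassium channel genes had 3 of 30, or 3 of 21 long genes. These were Kcnn3 (103.59, 3 E-boxes), Kcnq1 (87.44, 3 E-boxes) and Kcnip1 (52.5, 1 E-box). Glutamate receptor genes had 2 of 30, the promoter of Grin1, the obligate NMDA receptor subunit (53.66), and an intron of Grik4 (51.95), and neither held an E-box. Of the 21 long glutamate receptor genes 1 had a site (4.76%), beside the 10.6% of all long genes. Of all 30 the share was 6.67%, beside 2.29% of all protein-coding genes. These counts are small, and neither comparison was tested.

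Among factors of cortical layers and excitatory fate, Cux2, a factor of upper layers, had 1 site (60.4, 2 E-boxes). Zfpm2 had 2 (50.06 with 2 E-boxes and 50.04 with none). Among bHLH genes and their partners only Tcf4, which encodes a dimer partner of NEUROD factors, held sites, which is 1 of 26 genes. Their scores were 57.8, with 1 E-box, and 50.35, with none. Scaffold genes had 3 of 30, or 3 of 17 long genes, which were Magi1 (98.14), Dlgap1 (55.4) and Dlg2 (53.8), with 1 E-box each. The Magi1 site lay 35 bp from an antibody 2 peak. Genes of reelin signalling and migration had 2 of 22, both among the 6 long ones, Auts2 (75.95, no E-box) and Dab1 (51.11, 1 E-box). No gene among 26 of the inhibitory lineage, 6 of radial glia and astrocytes, 7 of the oligodendrocyte lineage, 5 of microglia and 5 of endothelium held a site. In each of these lists only 1 or 2 genes were at least 100 kb long.

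One gene cluster stood out on chromosome 11, and it was chosen after the positions were seen. Between 99583252 and 99897710 lay 8 antibody 1 only sites, whose midpoints spanned 314 kb, among genes for keratin-associated proteins, the cysteine-rich matrix proteins of hair. Their scores were 64.89 at Krtap1-4, 58.15 at Gm11938, 65.57 between genes near Gm14186, 106.24 at Gm14193, 104.12 at Krtap4-8, 79.28 at Krtap4-9, 121.29 at Gm11568 and 54.68 at Gm11566. The central 200 bp windows at Krtap1-4, Krtap4-8, Krtap4-9 and Gm11568 held 4, 4, 6 and 9 CAGCTG boxes, repeated at short intervals as the Gm11568 window above shows. These windows are longer than all of these sites but the 258 bp one at Krtap4-8, and boxes beyond the peak edges were counted with the others. The 403 kb from the first of them also held 11 sites of all 3 antibodies, 5 of antibodies 1 and 2 and 2 of antibody 2 only. Of 57 protein-coding Krtap genes, 3 (5.26%) held an antibody 1 only site, beside 2.29% of all protein-coding genes. Of the antibody 1 only sites 0.605% (0.277 to 1.31) lay within 10 kb of a Krtap gene, and of the sites of all 3 antibodies 0.479% (0.260 to 0.879), with overlapping intervals. Stretches of 50 bp that recur elsewhere were present at Krtap4-8 (8 of 209) and at none of the other antibody 1 only sites within 10 kb of a Krtap gene. The 5 sites within Tspear on chromosome 10 lay at Gm18596 (76.11), Gm7138 (106.86), Gm2696 (68.41 and 58.15) and Gm3285 (52.98).

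**Figure D5:**
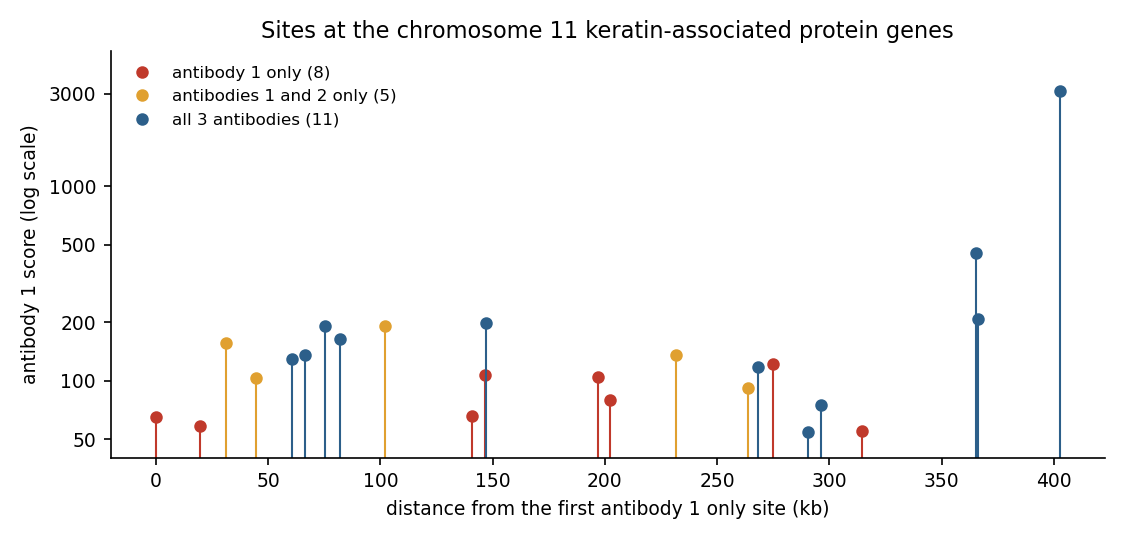
Antibody 1 score (vertical axis, log scale) of sites along the keratin-associated protein genes of chromosome 11, by distance in kb from the first antibody 1 only site (horizontal axis). The 8 antibody 1 only sites, at 54.68 to 121.29, lie interspersed with 5 sites of antibodies 1 and 2 and 11 of all 3 antibodies, the highest of which has a score of 3100.

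Across chromosomes, 979 sites lay on autosomes, 3.98 per 10 Mb, with the most on chromosome 11 (89 sites, 9.0% of the class against 8.1% of the sites of all 3 antibodies). Chromosome X held 6 (0.605%, 0.277 to 1.31), a share near that of all 3 antibodies (0.718%, 0.436 to 1.18). Chromosome Y also held 6, against none of the 2088 sites of all 3 antibodies, which allows a share of up to 0.144% (3 sites of the total), and none of those of antibodies 1 and 2. Antibody 2 only had 3 (0.0455%, 0.0155 to 0.134) and antibody 3 only had 1 (0.219%, 0.0387 to 1.23), and these shares were not tested. These 6 were 63 to 122 bp long, with scores from 50.35 to 90.47, and none of their 50 bp stretches recurred elsewhere in the assembly. Apart from 1 near the TSS of Gm28920 they were intergenic.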

How the data were processed

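ChIP-Seq peaks of 3 NEUROD2 antibodies, 1 library each, were analysed. Per the labels and the methods, Bowtie was used for mapping to mm10 (GRCm38), and MACS for calling the peaks of every antibody separately, with GFP reads as control. The deposited score of each peak, −10 times the log10 of its p-value, was used as given, with no scaling between antibodies. The authors' table of shared sites, which carries combined values, was not used. Depth is unknown, and intervals cover counting error over sites only.

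Peaks sharing at least 1 bp were merged. By its midpoint and GENCODE M21, each site was called promoter (at most 1000 bp from a TSS), exonic, intronic or intergenic. Sequence came from GRCm38, whose lower-case letters mark repeats. E-boxes, 35 short motifs, hexamers and the CTCF core (at most 1 mismatch, both strands) were searched. Shares were compared by two-sided Fisher's exact test with Benjamini-Hochberg adjustment at 0.05. The steps were tested on simulated data. The named sites are the 10 with the highest scores, 5 at promoters, 5 genes with most sites, the 3 highest of each gene list and 3 on each side of the rule. Dop1b (113.84) is the fifth promoter. One named site is not reported here. The sites and lists were chosen with earlier results of these data known. Alternatives varied the overlap, score, windows, TSSs, repeats and libraries. Software was scipy 1.17.1, numba 0.67.0, pandas 2.3.3 and numpy 2.4.6 under Python 3.11.15, and matplotlib 3.10.9.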

Additional observations from a re-analysis of the deposited data

How the results depend on the processing

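Of 66 alternatives over 10 results, 50 kept the direction and the side of the threshold or stayed within the range set for a count, and 1 reversed. With only antibody 1 only sites of a score of at least 100, 38 sites at 24 protein-coding genes were left. Against all sites of all 3 antibodies, with no filter on these, the promoter share was then 26.3% (adjusted p = 0.635), the intergenic share 34.2% (0.629), the repeat share 10.5% (0.597), the share with repeated 50-mers 7.89% (0.650) and the E-box share 71.1% (0.464), all by exact test and none past the threshold. The CTCF core share was 2.63% (0.0249). With the same filter on both classes, chosen after seeing the data, the promoter share of 26.3% stood against 26.1% and so reversed in direction (adjusted p = 1, exact test). The intergenic, repeat, 50-mer and E-box shares of 34.2%, 10.5%, 7.89% and 71.1% stood against 31.7%, 9.38%, 13.1% and 78.4% and did not pass the threshold (adjusted p = 0.770, 0.823, 0.494 and 0.358, exact test), while the CTCF core share did (0.0245).

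Leaving out an antibody changes which sites count as antibody 1 only. Without antibody 3 there were 1024 sites at 518 genes and without antibody 2 there were 3066 at 1573 genes, so the absence of antibody 2 peaks sets the number. The median score ranged from 57.3 to 66.2, the promoter share from 14.8% to 23.5%, the intergenic share from 35.1% to 39.6%, the repeat share from 9.72% to 11.5%, the E-box share from 58.7% to 71.3% and the CTCF core share from 4.11% to 7.86%. The repeat share no longer passed the threshold without antibody 2 (adjusted p = 0.436, exact test). Without antibody 1 no site is left. No paired analysis was possible because each antibody has 1 library and the GFP and input libraries have no peak list.

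Limited to sites within a score below 75, or without sites within 10 kb of Krtap genes, both chosen after seeing the data, promoter shares were 14.3% and 14.0% and E-box shares 56.6% and 58.8%. Scores rest on unknown depths, and 1 library per antibody gives no error between libraries.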
